A study of Homo sapiens with 6 samples.

Results

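The transcripts of 33 genes of glycolysis, lactate handling and the pentose phosphate pathway were examined in H2452 cells, an established line of pleural mesothelioma, with and without an sgRNA against *NF2*. These genes were taken by symbol from a table of 58735 genes, and every one of the 33 symbols had a row. The RNA was sequenced from 3 libraries of cells with a scrambled control sgRNA (sgCtrl, genotype labelled WT) and 3 libraries of cells with an *NF2*-targeting sgRNA (sg*NF2*-1, genotype labelled NF2-KO), which make up the whole series, in a study of how loss of *NF2* alters tumour metabolism. Both groups received a lentivirus that carries the sgRNA, Cas9 and mCherry, were sorted for mCherry and grew in RPMI-1640 with fetal bovine serum, and no single-cell cloning is described, so each group is a sorted population of infected cells and rests on 1 sgRNA. Nothing in the labels says that the libraries of a group came from separate cultures, so the p-values measure the spread between these libraries, which may be technical.

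Glycolysis takes up glucose through transporters, traps it as a phosphate, splits it into triose phosphates and harvests ATP and NADH on the way to pyruvate. Lactate dehydrogenase then turns pyruvate into lactate, which monocarboxylate transporters carry out of the cell, while pyruvate dehydrogenase kinases inactivate pyruvate dehydrogenase. The pentose phosphate pathway branches off at glucose 6-phosphate and supplies NADPH and the ribose 5-phosphate from which nucleotides, pyrimidines among them, are built. Many of these genes are textbook targets of hypoxia-inducible factor and of *MYC*. Both bind DNA at short elements, ACGTG and CACGTG among them, and other elements were not searched for here.

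The library totals ran from 14782423 to 17416463 counts. *NF2* itself (ENSG00000186575, chr22:29603556-29698598 in hg38) was counted 1162, 1197 and 1025 times in the sgCtrl libraries and 692, 802 and 590 times in those of sg*NF2*-1, with a log2 fold change of -0.69 (standard error 0.10, edgeR adjusted p = 7.87e-06), so the transcript was lower and not absent. Of 12 mesothelial markers, 9 passed the expression filter, among them *MSLN*, *WT1*, *CALB2*, *PDPN* and the keratins *KRT7*, *KRT8*, *KRT18* and *KRT19*, whereas *KRT5*, *HP* and *LRRN4* were at or near 0. The summed level of the 12 ran from 778 to 873 FPKM (fragments per kilobase of transcript, scaled to sequencing depth) in sgCtrl and from 736 to 897 FPKM in sg*NF2*-1. This sum hides changes of single markers, since 3 of the 9 tested (*MSLN*, *KRT7* and *KRT18*) were higher and 3 (*WT1*, *KRT19* and *PDPN*) were lower, with a median log2 fold change of -0.38. That is 33.3% each way, where 17.7% of all tested genes were higher and 16.6% lower. Of 12 markers of other cell types, 11 stayed under 1 FPKM in every library and the leukocyte marker *PTPRC* was at 0. The exception was *CD14*, at 67.1 to 74.2 FPKM in sgCtrl and 31.9 to 35.1 FPKM in sg*NF2*-1, and without it the list summed to 1.02 to 1.29 FPKM in sgCtrl and 0.434 to 0.689 FPKM in sg*NF2*-1. The part of these differences in the results that follow was not tested. In bulk RNA, fewer cells that express a gene and less RNA of it per cell cannot be told apart.

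The glucose transporter transcript *SLC2A1* and transcripts for several glycolytic steps and lactate formation were lower in sg*NF2*-1, and a phosphofructokinase transcript was higher. The pentose phosphate transcripts among the 33 genes were not called in either direction. Of the 33 genes, 31 passed the expression filter, 11 were lower, 1 was higher and 19 were not called (threshold 0.05 on the p-value from edgeR, adjusted over all tested genes). The share that was lower was 35.5%, where 16.6% of all 14179 tested genes were lower. The share that was higher was 3.23%, where 17.7% of all tested genes were higher. The genes that fell were *SLC2A1*, *GPI*, *PGM1*, *PFKFB3*, *PFKFB4*, *TPI1*, *PGK1*, *PGAM1*, *ENO2*, *PKM* and *LDHA*, and the gene that rose was *PFKP*. With the fold limit of the study (log2 fold change beyond 0.5, unadjusted p under 0.05), 5 were lower (*SLC2A1*, *PFKFB4*, *PGAM1*, *ENO2* and *LDHA*) and none was higher by edgeR, where 10.8% and 9.22% of all tested genes were. DESeq2 put 6 past the limit as lower, *PFKFB3* being the one added (log2 fold change -0.50), and none as higher. The median log2 fold change was -0.22 over the 31 genes, with 25 of them below 0, and -0.0025 over all tested genes. In 14 of the 31 genes every sg*NF2*-1 library lay below every sgCtrl library and in 1 every library lay above, where 22.2% and 23.2% of all tested genes were so separated.

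**Figure D1:**
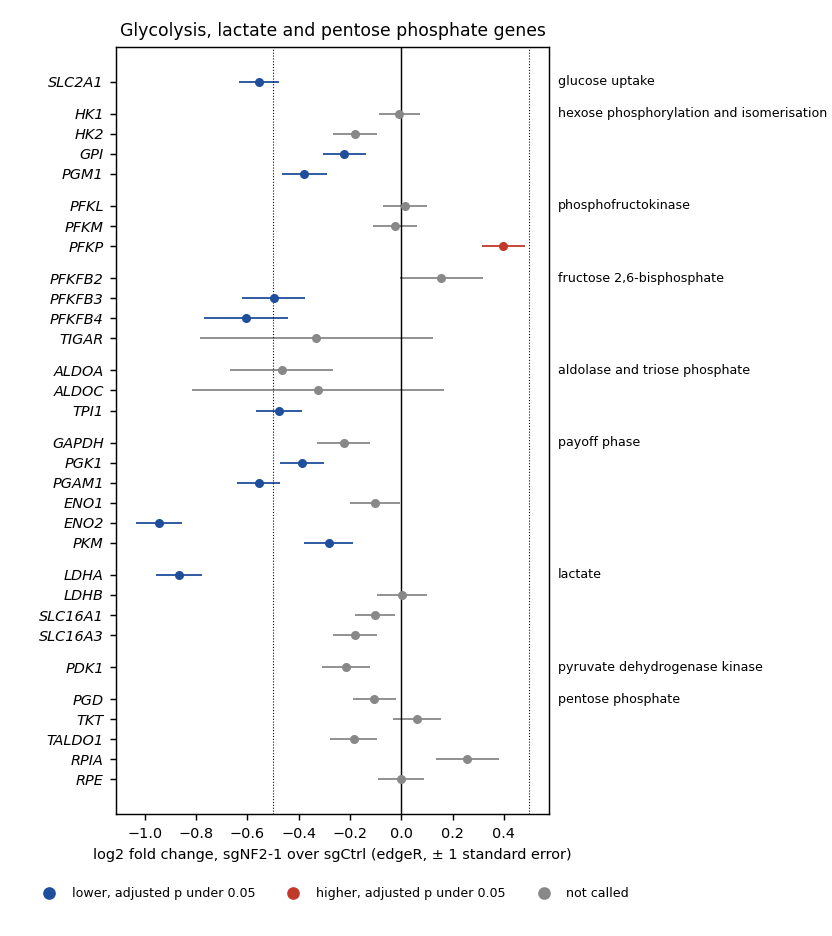
The log2 fold change of each of the 31 tested genes in sg*NF2*-1 over sgCtrl (x axis, edgeR, bars 1 standard error either side) is shown with the genes grouped by role (y axis); dotted lines mark the fold limit of 0.5. Changes ran from -0.95 for *ENO2* to 0.40 for *PFKP*, and no pentose phosphate gene is coloured as called.

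Together the 33 genes took up a smaller part of the transcriptome in sg*NF2*-1. Their summed FPKM was 1.87%, 1.90% and 2.05% of all FPKM in sgCtrl and 1.54%, 1.50% and 1.58% in sg*NF2*-1. The groups did not overlap, and the means were 1.94% ± 0.0956 and 1.54% ± 0.0445 (SD, n = 3 each). Most of this sum came from *GAPDH*, *ENO1* and *PKM*, which ranked 12, 25 and 45 among all genes by mean FPKM in sgCtrl. Without these 3 genes the sum was 0.744% ± 0.00833 in sgCtrl and 0.548% ± 0.0129 in sg*NF2*-1 (SD, n = 3 each), a difference of -0.20 percentage points in place of -0.40.

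The letters before annotated transcription starts of these genes are shown because many of the genes have a window with ACGTG, whether they were called or not. These were 7 of the 11 genes that fell (63.6%), 9 of the 17 matched genes not called (52.9%) and *PFKP*, against 21.7% of all genes. For 30 of the 33 genes RefSeq gave 58 windows of 250 bases before a transcription start (build GRCh38.p14), and ACGTG stood on one or the other strand in 21 of them, or 36.2%. The same letters stood in 18.5% of the 35116 windows of all 27305 genes, expressed or not. The 30 genes had more windows each than all genes did, which by itself raises a share counted by gene. The share was 43.8% of the 16 windows of genes that fell and 32.4% of the 37 windows of genes not called. The longer CACGTG, which holds ACGTG on both strands, stood in 10.3% of the 58 windows and in 6.34% of all windows. 4 stretches of plus-strand sequence outside every annotated exon are printed 5′ to 3′ with these letters in capitals, for *LDHA* (chr11:18394313-18394387) and *PGK1* (chrX:78103998-78104173), which fell, *PFKP* (chr10:3068939-3069188), which rose, and *GAPDH* (chr12:6535142-6535263), which was not called.
LDHA: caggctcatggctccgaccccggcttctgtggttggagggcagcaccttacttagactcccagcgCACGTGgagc
PGK1: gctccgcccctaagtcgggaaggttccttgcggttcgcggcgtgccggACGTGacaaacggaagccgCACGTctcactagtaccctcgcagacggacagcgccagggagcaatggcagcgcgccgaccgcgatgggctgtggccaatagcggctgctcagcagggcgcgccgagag
PFKP: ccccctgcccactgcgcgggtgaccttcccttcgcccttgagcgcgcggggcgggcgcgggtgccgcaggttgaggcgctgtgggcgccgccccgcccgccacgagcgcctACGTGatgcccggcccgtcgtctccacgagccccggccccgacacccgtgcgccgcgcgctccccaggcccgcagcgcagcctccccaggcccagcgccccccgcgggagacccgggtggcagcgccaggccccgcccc
GAPDH: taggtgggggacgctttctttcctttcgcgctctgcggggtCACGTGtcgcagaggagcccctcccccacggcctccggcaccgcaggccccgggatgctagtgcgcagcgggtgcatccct
Only the *LDHA* stretch lies before the listed span of its gene, and the other stretches lie inside theirs, before a later start. The *LDHA* window held 3 such places in all, and the *PFKP* stretch is the only one of 4 *PFKP* windows with a match. The window of *ENO2* held 1 match but lies inside annotated exons, as does that of *PGAM1*, which held none, and the single window of *SLC2A1* held none. A match describes these letters and does not show that a factor binds there. Likewise, a window without a match does not show that no factor binds.

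Of the 2 glucose transporter genes in this list, only *SLC2A1* was tested. Outside the list, *SLC2A6*, *SLC2A8* and *SLC2A12* of the same family were tested and not called. Their log2 fold changes were -0.19, 0.16 and 0.092 (edgeR adjusted p = 0.141, 0.315 and 0.92). *SLC2A1* (ENSG00000117394, chr1:42925375-42959176), which encodes the glucose transporter GLUT1, stood at 54.0, 54.9 and 56.4 FPKM in sgCtrl and at 35.9, 39.0 and 36.7 FPKM in sg*NF2*-1. The groups lay well apart, and *SLC2A1* fell by 0.55 on the log2 scale (standard error 0.078, edgeR adjusted p = 4.65e-06), to 68.1% of the sgCtrl level in CPM (counts scaled to the TMM library size). *SLC2A3*, which encodes the transporter GLUT3, had 1 to 7 counts per library and was not tested.

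Among the enzymes that phosphorylate and rearrange hexoses, the isomerase and the mutase fell while the hexokinases *HK1* and *HK2* were not called. A further hexokinase outside this list, *HKDC1*, rose by 1.14 (log2, edgeR adjusted p = 7.44e-09) and is given below. *HK1*, the ubiquitous hexokinase on the outer mitochondrial membrane, stood at 75.9, 71.4 and 72.1 FPKM in sgCtrl and 71.8, 71.8 and 72.6 FPKM in sg*NF2*-1, with the groups mixed and a log2 fold change of -0.0072 (standard error 0.079, edgeR adjusted p = 0.958). *HK2*, the inducible hexokinase, stood at 18.7, 20.02 and 17.1 FPKM and at 17.4, 16.2 and 15.2 FPKM, where the ranges overlapped, and its log2 fold change of -0.18 was not called (edgeR adjusted p = 0.105). Leaving out sgCtrl replicate 3, the lowest control, brought *HK2* to -0.23 (edgeR adjusted p = 0.0441), and leaving out sgCtrl replicate 2, the highest, to -0.13 (0.381).

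*GPI* (ENSG00000105220, chr19:34359480-34402413), which turns glucose 6-phosphate into fructose 6-phosphate, stood at 54.1, 57.4 and 58.3 FPKM in sgCtrl and 43.6, 48.8 and 51.8 FPKM in sg*NF2*-1. The groups did not overlap, and *GPI* fell by 0.22 on the log2 scale (standard error 0.085, edgeR adjusted p = 0.045). This call was close to the threshold and was lost without any single sgCtrl library or without sg*NF2*-1 replicate 1 or 2, with edgeR adjusted p-values from 0.0536 (without sgCtrl replicate 1) to 0.257 (without sg*NF2*-1 replicate 1). *PGM1* (ENSG00000079739, chr1:63593276-63660245), which links glucose 6-phosphate to glycogen through glucose 1-phosphate, stood at 17.0, 16.6 and 18.5 FPKM and at 12.5, 14.01 and 13.2 FPKM. Every sg*NF2*-1 library was below every control, and *PGM1* fell by 0.38 (log2, standard error 0.088, edgeR adjusted p = 0.00152).

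Phosphofructokinase, the committing step of glycolysis, had the only gene that rose. *PFKP* (ENSG00000067057, chr10:3066333-3137712), which encodes the platelet-type subunit, stood at 43.0, 45.7 and 48.0 FPKM in sgCtrl and at 55.3, 58.1 and 65.2 FPKM in sg*NF2*-1. All sg*NF2*-1 libraries were above all controls, and *PFKP* rose by 0.40 on the log2 scale (standard error 0.084, edgeR adjusted p = 0.000631). The liver-type *PFKL*, at 38.2, 35.6 and 35.9 FPKM in sgCtrl and 34.8, 34.1 and 40.8 FPKM in sg*NF2*-1, and the muscle-type *PFKM*, at 9.86 to 10.7 FPKM and 9.38 to 10.5 FPKM, overlapped between the groups. Their log2 fold changes were 0.014 and -0.024 (edgeR adjusted p = 0.924 and 0.858).

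FPKM is scaled by gene length, so the subunits could be set against each other within a library. That length is of all annotated exons of a gene together, and the transcripts expressed may be shorter. All isoenzyme shares given here therefore depend on the annotation. *PFKP* made up 46.8%, 50.0% and 51.2% of the summed FPKM of the 3 phosphofructokinase genes in sgCtrl and 55.2%, 57.2% and 56.0% in sg*NF2*-1. The groups did not overlap, and the mean share went from 49.3% ± 2.28 to 56.1% ± 1.02 (SD, n = 3 each). *PFKL* went from 39.6% ± 1.73 to 34.5% ± 0.776 and *PFKM* from 11.1% ± 0.574 to 9.44% ± 0.582 (SD, n = 3 each). The two-sided exact permutation test gave p = 0.10 for each of these shares, the smallest that 3 libraries against 3 allow, and 0.186 after Benjamini-Hochberg adjustment over 13 shares, so none could be called.

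The bifunctional enzymes that make and break fructose 2,6-bisphosphate, the strongest activator of phosphofructokinase, were expressed at low levels. *PFKFB3* (ENSG00000170525, chr10:6144934-6254644), the form with the highest kinase activity, stood at 4.92, 4.29 and 3.51 FPKM in sgCtrl and 2.92, 3.17 and 2.83 FPKM in sg*NF2*-1. The groups did not overlap, and *PFKFB3* fell by 0.50 on the log2 scale (standard error 0.12, edgeR adjusted p = 0.00289), a change of -0.498 that lies just inside the fold limit. *PFKFB4* (ENSG00000114268, chr3:48517684-48562015) stood at 2.64, 1.91 and 1.66 FPKM and at 1.46, 1.34 and 1.24 FPKM. The controls were more scattered than the sg*NF2*-1 libraries, and *PFKFB4* fell by 0.61 (log2, standard error 0.16, edgeR adjusted p = 0.00523). Without sgCtrl replicate 1, the highest control, the change was -0.39 and the call was lost (edgeR adjusted p = 0.0753). *PFKFB2* stood at 0.714 to 0.844 FPKM in sgCtrl and 0.755 to 1.01 FPKM in sg*NF2*-1 and was not called (log2 fold change 0.16, edgeR adjusted p = 0.49). *TIGAR*, a fructose 2,6-bisphosphatase that turns flux towards the pentose phosphate pathway, had 9 to 20 counts per library and was not called (log2 fold change -0.33, standard error 0.45, edgeR adjusted p = 0.613). It shares 42.6% of its exonic bases with *AC008012.1*, which had 0 counts, so its level is uncertain as well as low. Within the summed FPKM of the 3 PFKFB genes, the *PFKFB2* share went from 11.1% ± 2.72 to 16.3% ± 2.14 and the *PFKFB4* share from 29.02% ± 2.50 to 26.0% ± 0.91 (SD, n = 3 each), both without overlap, while the *PFKFB3* share overlapped (two-sided exact permutation p = 0.10, 0.10 and 0.50).

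Triosephosphate isomerase fell, and the aldolases were low and uncertain. *TPI1* (ENSG00000111669, chr12:6867119-6870948), which interconverts the triose phosphates, stood at 356, 347 and 397 FPKM in sgCtrl and 256, 240 and 289 FPKM in sg*NF2*-1. The groups lay apart, and *TPI1* fell by 0.48 on the log2 scale (standard error 0.090, edgeR adjusted p = 0.000198). *ALDOA*, the main aldolase of most tissues, was listed at 2.92, 2.86 and 2.56 FPKM in sgCtrl and 1.63, 1.37 and 3.03 FPKM in sg*NF2*-1, so sg*NF2*-1 replicate 3 was above every control and the other two were below. Its log2 fold change of -0.47 (standard error 0.20) was not called (edgeR adjusted p = 0.0755), and it was -0.87 without sg*NF2*-1 replicate 3 (edgeR adjusted p = 0.000619) and -0.25 without sg*NF2*-1 replicate 2 (0.35). In GENCODE release 29, 42.3% of the exonic bases of *ALDOA* also belong to *AC093512.2* on the same strand, which had 63 to 112 counts, so the listed level of *ALDOA* is uncertain. The brain-type *ALDOC* had 6 to 18 counts per library and was not called (log2 fold change -0.32, edgeR adjusted p = 0.65).

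From glyceraldehyde 3-phosphate to pyruvate, 4 of 6 genes fell, and the most abundant ones, *GAPDH* and *ENO1*, were not called. *GAPDH*, the NADH-producing dehydrogenase, stood at 1416, 1525 and 1906 FPKM in sgCtrl and 1312, 1327 and 1471 FPKM in sg*NF2*-1, with overlapping ranges. Its log2 fold change of -0.22 (standard error 0.10) was not called (edgeR adjusted p = 0.0991), and it moved with single controls, to -0.31 without sgCtrl replicate 1, the lowest (edgeR adjusted p = 0.0383), and to -0.085 without sgCtrl replicate 3, the highest (0.498). *ENO1*, the ubiquitous enolase, overlapped between the groups at 922 to 1091 FPKM and 842 to 996 FPKM (log2 fold change -0.10, edgeR adjusted p = 0.454).

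*PGK1* (ENSG00000102144, chrX:77910739-78129296), the first ATP-producing enzyme, stood at 133, 141 and 157 FPKM in sgCtrl and 105, 109 and 114 FPKM in sg*NF2*-1. It fell by 0.39 on the log2 scale with no overlap between the groups (standard error 0.086, edgeR adjusted p = 0.00106). *PGAM1* (ENSG00000171314, chr10:97426160-97433441), which moves the phosphate of 3-phosphoglycerate, stood at 238, 249 and 283 FPKM and at 174, 170 and 174 FPKM. The sg*NF2*-1 libraries were tightly grouped below the controls, and *PGAM1* fell by 0.56 (log2, standard error 0.085, edgeR adjusted p = 1.37e-05).

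*ENO2* (ENSG00000111674, chr12:6913745-6923698), the neuronal enolase that many tumours also express, changed most of the 31 genes. It stood at 26.9, 23.2 and 23.6 FPKM in sgCtrl and 13.5, 12.0 and 12.4 FPKM in sg*NF2*-1. The groups were far apart, and *ENO2* fell by 0.95 on the log2 scale (standard error 0.089, edgeR adjusted p = 1.03e-08), to 51.9% of the sgCtrl level in CPM. The share of *ENO1* in the summed FPKM of the enolases went from 97.5% ± 0.355 to 98.6% ± 0.182 (SD, n = 3 each), without overlap, so *ENO2* was the minor form in both groups. *PKM* (ENSG00000067225, chr15:72199029-72231822), the pyruvate kinase whose M1 and M2 forms the counts do not separate, stood at 533, 532 and 603 FPKM and at 429, 434 and 495 FPKM. *PKM* fell by 0.28 (log2, standard error 0.095, edgeR adjusted p = 0.0219) with no overlap, and the call was lost without sgCtrl replicate 3 (edgeR adjusted p = 0.0652), sg*NF2*-1 replicate 1 (0.105) or sg*NF2*-1 replicate 2 (0.118).

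**Figure D2:**
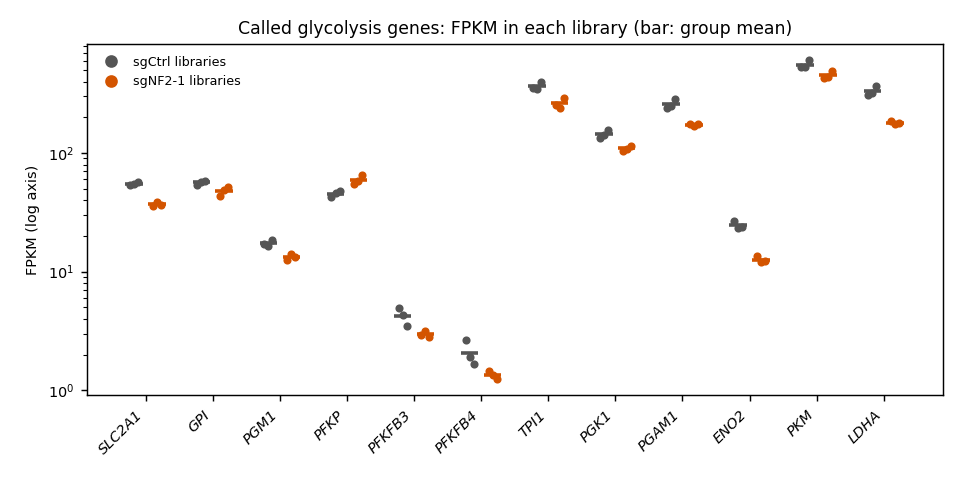
FPKM of each called gene in every library (y axis, log scale) is plotted for the 3 sgCtrl (grey) and 3 sg*NF2*-1 libraries (orange), with a bar at each group mean. For all 12 genes (x axis) the groups do not overlap, with *PFKP* higher in sg*NF2*-1 and the other 11 lower.

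Of the lactate genes, the dehydrogenase subunit *LDHA* fell and its partner and the transporters were not called. *LDHA* (ENSG00000134333, chr11:18394388-18408425), the subunit that favours lactate production, stood at 310, 320 and 367 FPKM in sgCtrl and 186, 174 and 181 FPKM in sg*NF2*-1. The sg*NF2*-1 libraries were close together and far below the controls, and *LDHA* fell by 0.87 on the log2 scale (standard error 0.090, edgeR adjusted p = 4.08e-08), to 54.8% of the sgCtrl level in CPM. By mean FPKM in sgCtrl, *LDHA* ranked 83 among all genes.

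*LDHB*, the subunit that favours pyruvate, stood at 17.5, 15.2 and 18.7 FPKM in sgCtrl and 16.6, 16.0 and 18.5 FPKM in sg*NF2*-1, and the groups were mixed (log2 fold change 0.0038, standard error 0.098, edgeR adjusted p = 0.983). The *LDHA* share of the summed FPKM of both subunits was 94.7%, 95.5% and 95.2% in sgCtrl and 91.8%, 91.6% and 90.7% in sg*NF2*-1. It was lower in every sg*NF2*-1 library, by 3.72 percentage points on average (two-sided exact permutation p = 0.10, adjusted 0.186). As a share of counts, which are not scaled by length, the difference was -1.92 points. In GENCODE release 29, 33.4% of the exonic bases of *LDHB* also belong to *AC010197.2*, which had 0 or 1 count, so the level of *LDHB* and the share are uncertain. The lactate transporter *SLC16A1* (MCT1) stood at 45.8 to 47.7 FPKM in sgCtrl and 41.4 to 44.3 FPKM in sg*NF2*-1, separate but by a small margin (log2 fold change -0.10, edgeR adjusted p = 0.33). *SLC16A3* (MCT4), the exporter of glycolytic cells, stood at 53.4, 53.2 and 54.2 FPKM and at 45.3, 43.3 and 52.1 FPKM, where sg*NF2*-1 replicate 3 was near the controls. Its log2 fold change was -0.18 (edgeR adjusted p = 0.104), -0.26 without that library (edgeR adjusted p = 0.0145) and -0.12 without sg*NF2*-1 replicate 2 (0.413).

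*PDK1*, the kinase that inactivates pyruvate dehydrogenase, stood at 3.54, 4.14 and 3.72 FPKM in sgCtrl and 3.35, 3.33 and 3.05 FPKM in sg*NF2*-1. Every sg*NF2*-1 library was below every control, but the log2 fold change of -0.22 was not called (standard error 0.092, edgeR adjusted p = 0.0725). Its relative *PDK3* had 2 to 5 counts per library and was not tested.

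**Figure D3:**
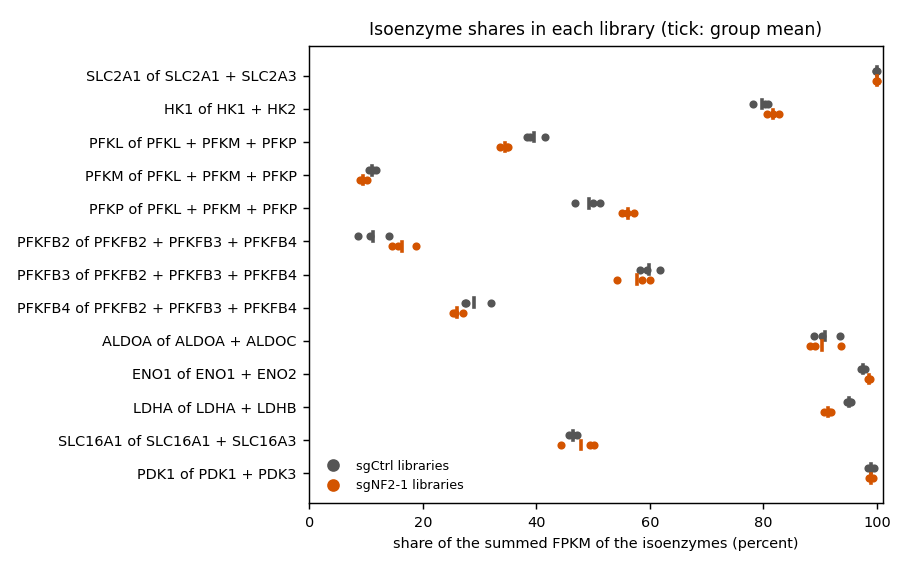
The share of each isoenzyme gene in the summed FPKM of its family (x axis, percent) is shown in each sgCtrl (grey) and sg*NF2*-1 library (orange), with a tick at each group mean. Of 13 shares (y axis), 7 did not overlap between the groups, with the *PFKP* share higher and the *LDHA* share lower in sg*NF2*-1. Of all tested genes, 22.2% lay lower and 23.2% higher without overlap in CPM. Shares within a family depend on each other, and none was called.

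Without a replicate block, no pentose phosphate gene among the 5 was called with all libraries and TMM scaling in edgeR, with DESeq2 or with limma on FPKM. 1 of the 5 had an unadjusted p under 0.05 in edgeR, and their median log2 fold change was -0.0005. *PGD*, the NADPH-producing dehydrogenase of the oxidative branch, overlapped between the groups at 133 to 147 FPKM in sgCtrl and 119 to 135 FPKM in sg*NF2*-1 (log2 fold change -0.10, edgeR adjusted p = 0.35). In the non-oxidative branch, the transketolase *TKT* stood at 48.2, 53.6 and 59.4 FPKM and at 50.1, 53.8 and 62.8 FPKM, almost the same in both groups (log2 fold change 0.061, edgeR adjusted p = 0.655). The transaldolase *TALDO1* stood at 161, 165 and 189 FPKM and at 136, 145 and 169 FPKM, with sg*NF2*-1 replicate 3 inside the control range.

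*TALDO1* had a log2 fold change of -0.19 (edgeR adjusted p = 0.122), and this was -0.28 without sg*NF2*-1 replicate 3 (edgeR adjusted p = 0.0196), -0.12 without sg*NF2*-1 replicate 1 (0.445) and -0.11 without sgCtrl replicate 3 (0.391). *RPIA*, which makes ribose 5-phosphate, stood at 8.26, 9.26 and 8.87 FPKM in sgCtrl and 9.12, 11.3 and 11.0 FPKM in sg*NF2*-1, where replicate 1 lay inside the control range and the other two above it. Its log2 fold change of 0.26 (standard error 0.12) did not pass the adjustment (unadjusted p = 0.0457, edgeR adjusted p = 0.107). *RPE*, the epimerase that makes xylulose 5-phosphate, was mixed between the groups at 14.7 to 15.8 FPKM and 14.6 to 15.9 FPKM (log2 fold change -0.0005, standard error 0.089, edgeR adjusted p = 0.997). On the opposite strand, *KANSL1L* (116 to 183 counts) covers 23.8% of the exonic bases of *RPE*, and without a stated strand setting their reads cannot be told apart.

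The same comparison on log2(FPKM + 1) values with limma tested 29 of the 33 genes and called 8 lower and 1 higher, where 14.1% and 14.3% of all 13038 tested genes were called. *GPI*, *PFKFB4* and *PKM*, called by edgeR, were not called there (limma adjusted p = 0.0593, 0.0593 and 0.0548).

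Other genes of the same pathways were taken by textbook function. Of 46 other genes of glycolysis, gluconeogenesis and glycogen, 27 were tested, 6 were higher (22.2%) and 8 lower (29.6%), with a median log2 fold change of -0.048. Of all tested genes, 17.7% were higher and 16.6% lower. *PCK2*, the mitochondrial phosphoenolpyruvate carboxykinase, stood at 4.35, 3.77 and 4.02 FPKM in sgCtrl and 18.7, 18.2 and 19.1 FPKM in sg*NF2*-1 and rose by 2.22 (log2, edgeR adjusted p = 1.5e-14). *HKDC1*, a further hexokinase, stood at 4.73, 4.43 and 4.08 FPKM and at 9.64, 9.27 and 10.0 FPKM and rose by 1.14 (log2, edgeR adjusted p = 7.44e-09). The glycogen phosphorylase *PYGB* rose by 0.60, whereas pyruvate carboxylase *PC*, the glycogen synthase *GYS1* and the inositol polyphosphate phosphatase *MINPP1* fell by 0.70, 0.55 and 0.66 (log2, edgeR adjusted p = 2.04e-06, 5.46e-07, 0.000347 and 2.77e-05 in that order). *PGM2L1*, at 0.18 to 0.21 FPKM in sgCtrl, fell by 1.14 (log2, edgeR adjusted p = 0.0187), a call lost without sgCtrl replicate 1 (0.0728) or sg*NF2*-1 replicate 3 (0.0738).

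Of 11 other pentose phosphate and ribose genes, 9 were tested, 1 was higher (11.1%) and none was lower, where 17.7% and 16.6% of all tested genes were. The higher gene was *PGLS*, the lactonase of the oxidative branch, at 43.2, 39.4 and 45.8 FPKM in sgCtrl and 55.0, 55.0 and 64.2 FPKM in sg*NF2*-1 (log2 fold change 0.45, edgeR adjusted p = 0.00024). Of 21 other pyruvate and lactate genes, 16 were tested, 1 was higher (6.25%) and 2 were lower (12.5%), both below the shares of all tested genes. The pyruvate dehydrogenase phosphatase *PDP1*, which opposes *PDK1*, rose by 0.62, and the mitochondrial pyruvate carrier subunit *MPC2* fell by 0.53 (log2, edgeR adjusted p = 3.43e-06 and 0.000803). Of 20 TCA cycle genes, 4 were higher (20%) and 3 lower (15%), shares near the 17.7% and 16.6% of all tested genes, with a median log2 fold change of 0.070. The one beyond the fold limit was *IDH2*, which fell by 0.51 (log2, edgeR adjusted p = 0.00764), a call lost without sg*NF2*-1 replicate 1 (0.0648).

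Genes known to be induced by hypoxia, but with no part in glycolysis, were mostly lower in sg*NF2*-1. Of 24 such genes, all tested, 15 were lower (62.5%, against 16.6% of all tested genes) and 1 was higher (4.17%, against 17.7%), with a median log2 fold change of -0.46. *CA9*, the membrane carbonic anhydrase, stood at 5.00, 5.51 and 4.78 FPKM in sgCtrl and 1.60, 1.50 and 1.85 FPKM in sg*NF2*-1 and fell by 1.62 (log2, edgeR adjusted p = 3.23e-07). *CA12*, a related enzyme, fell by 1.54, the prolyl hydroxylase *EGLN3* by 1.76 and the collagen hydroxylase *P4HA1* by 1.08 (log2, edgeR adjusted p = 5.11e-13, 1.35e-08 and 5e-10). *ADM*, *PLOD2*, *BHLHE40*, *NDRG1*, *LOX*, *P4HA2* and *BNIP3L* also fell beyond the fold limit. *STC2*, a secreted glycoprotein, rose by 1.31 (log2, edgeR adjusted p = 1.06e-11), and the angiogenic factor *VEGFA* was not called (log2 fold change 0.15, edgeR adjusted p = 0.185). This list and the 33 glycolytic and pentose phosphate genes share no gene, but both were chosen with earlier results of these data known.

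Of 12 genes that regulate glycolytic transcription or are tied to its regulators, 11 were tested. Among these 3 were higher (27.3%) and 2 lower (18.2%), where 17.7% and 16.6% of all tested genes were. The higher ones were *MYC*, *MLX* and *TXNIP*, and the lower ones *ARNT* and *ARRDC4*. *MLX* stayed called in all 12 alternatives to the edgeR fit (log2 fold change 0.35 to 0.42), and *TXNIP* in 8 of 12 (0.22 to 0.35). *ARNT* stayed called in 7 of 12 alternatives to the edgeR fit (log2 fold change -0.33 to -0.26), and *ARRDC4* in all 12 (-0.53 to -0.41). *HIF1A*, the oxygen-regulated subunit, stood at 44.1, 50.1 and 51.6 FPKM in sgCtrl and 42.0, 47.6 and 40.3 FPKM in sg*NF2*-1, with overlapping ranges (log2 fold change -0.15, edgeR adjusted p = 0.175). *MYC* stood at 50.8, 50.1 and 50.3 FPKM and at 105, 107 and 103 FPKM, without overlap, and rose by 1.07 (log2, standard error 0.078, edgeR adjusted p = 1.09e-10). Transcript levels do not give the amount or activity of these proteins.

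**Figure D4:**
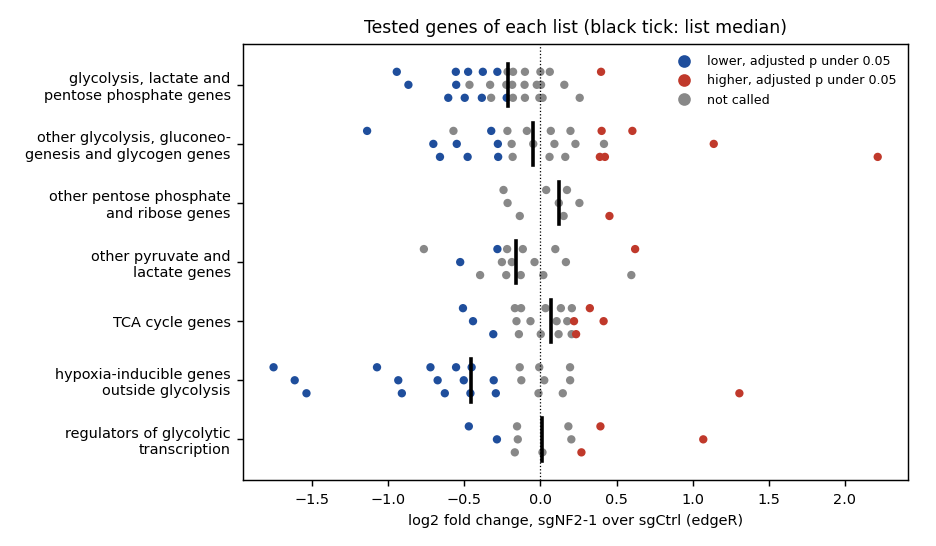
Each point is a tested gene of one list (y axis), placed at its log2 fold change in sg*NF2*-1 over sgCtrl (x axis, edgeR) and coloured by its call, with a black tick at the list median. The medians were -0.22 for the 31 tested genes of glycolysis, lactate and pentose phosphate and -0.46 for the 24 hypoxia-inducible genes.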

How the data were processed

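RNA-seq of 3 sgCtrl and 3 sg*NF2*-1 libraries of H2452 cells was used, grouped by sample title. For each gene the authors deposited the unnormalized read count and the FPKM. The submitters' processing notes name HISAT2, StringTie 1.3.3b, featureCounts 1.5.0-p3 and hg38, and the paper's methods name paired-end NovaSeq sequencing and DESeq2. Whether counting used strand, and how reads on overlapping genes were counted, is not given in the sources used here. All 58735 gene identifiers are in GENCODE release 29.

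Genes with low counts were removed by filterByExpr of edgeR (minimum count 10 and total 15), and the rest were TMM-normalized and fitted with edgeR 4.0.16 by the quasi-likelihood test of the group in R 4.3.3, with Benjamini-Hochberg adjustment over the 14179 tested genes. Genes were called, and rose or fell, at an adjusted p under 0.05. FPKM were tested with limma 3.58.1 on log2(FPKM + 1) at a mean of at least 0.5 FPKM. Overlap of libraries refers to CPM computed here from the deposited counts. Isoenzyme shares were compared by exact permutation tests. Of the 33 genes, 15 have 113 named pseudogenes, whose counts were at most 1.14% of a tested gene's. Windows came from RefSeq (GRCh38.p14).

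All 33 genes, *NF2* and genes of the other lists are named, for those lists first the genes past both an adjusted p of 0.05 and a log2 fold change of 0.5. The 33 genes and the lists were chosen with earlier results of these data known. Alternatives were DESeq2 1.42.0, its size factors or library totals in edgeR, other filters, a replicate block, an FPKM pseudocount of 0.1 and leaving out each library. The procedures were tested on simulated data. A result for 1 gene of these lists is not reported here. No 2 libraries of a group agreed within sampling noise (chi-square per degree of freedom 5.17 to 12.6).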

Additional observations from a re-analysis of the deposited data

How the results depend on the processing

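Calls of all 33 genes rest on 3 libraries a group and on 1 sgRNA. The number of lower genes, 11, was 11 with DESeq2, with its size factors, without a filter and with at least 10 counts in every library, 14 with library totals, and 9 to 14 with 1 library left out. The same 11 genes stayed lower with DESeq2, its size factors, library totals and the stricter filter, and *PFKP* stayed higher in all 12 alternatives to the edgeR fit. The count past the fold limit ran from 4 to 7 around 5. *GPI* was also lost without a filter (edgeR adjusted p = 0.0743). Uncalled genes became called as lower with library totals (*GAPDH*, 0.0356, *SLC16A3*, 0.0448, and the pentose phosphate gene *TALDO1*, just under the threshold at -0.21) and without a filter (*ALDOA*, 0.0302). Genes near 0 changed sign without being called, with log2 fold changes of -0.0156 for *PFKL* and -0.0228 for *LDHB* with library totals, 0.0076 for *HK1* and 0.0144 for *RPE* without a filter, and -0.0037 for *LDHB* with at least 10 counts in every library. With each library left out in turn they spanned -0.0259 to 0.0206 for *HK1*, -0.0693 to 0.067 for *PFKL*, -0.0561 to 0.024 for *PFKM*, -0.0765 to 0.0731 for *LDHB*, -0.033 to 0.1428 for *TKT*, -0.034 to 0.0322 for *RPE*, -0.5934 to 0.0181 for *TIGAR* and -1.0044 to 0.0348 for *ALDOC*. Higher TCA cycle genes numbered 2 with library totals. Without a filter 1 other pyruvate and lactate gene and 1 gene of the regulator list were lower. With 1 library left out, higher TCA cycle genes ran from 2 to 5 and lower other pyruvate and lactate genes from 1 to 2. Lower genes of the regulator list ran from 1 to 3, and lower other pentose phosphate and ribose genes from 0 to 1. In FPKM, 7 to 11 genes were lower and 1 to 2 higher, the 2 without sg*NF2*-1 replicate 1. The summed FPKM differed by -0.1964 percentage points without the 3 highest genes, as given above, and by -0.4469 as a share of counts. The cause of these shifts was not tested.

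With the replicate number as a block, 15 genes were lower by edgeR and 12 by limma on FPKM, against 11 and 8, the 4 added by edgeR being *ALDOA*, *GAPDH*, *SLC16A3* and *TALDO1*, and *NF2* changed by -0.70. Over all tested genes, same-numbered libraries deviated with correlations of -0.032, 0.057 and 0.05, and differently numbered ones with -0.107 to 0.06. With 3 libraries a group these values cannot settle whether libraries were paired, and the labels do not say.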
